A study of Homo sapiens with 6 samples.

Results

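RNA-seq of AN3CA, a cell line derived from an endometrial carcinoma, was read for the integrins and the proteins that tie them to actin. AN3CA still expresses *PAX2*, a paired-box transcription factor of urogenital development. Per the labels, 3 libraries came from cells labelled WT that carried the empty hairpin vector (shEV) and 3 from cells labelled PAX2 KD that carried a hairpin against *PAX2* (shPAX2), all selected with puromycin. The knockdown rests on a single hairpin, and the sources name no separate cultures behind the replicates, so p-values measure the spread between these libraries only. The study's methods also name an empty vector, but its results and legends call the AN3CA control scrambled. The study asked what loss of *PAX2* does to this line, including how quickly it closes a scratch wound. The members were all rows named as an integrin alpha or beta subunit, together with 16 named cytoplasmic proteins of focal adhesions. This gave 38 of the 17471 rows analysed here, of which 16 were alpha subunits, 7 were beta subunits and 15 were cytoplasmic proteins. *ITGA8*, *ITGAX*, *ITGB6* and *FERMT1* fit the rule by name but were not listed among the rows analysed here.

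Integrins are the receptors by which cells hold the extracellular matrix, and each is a pair of 1 alpha and 1 beta subunit. The alpha subunit largely sets the ligand, such as collagen, laminin or proteins that display an RGD motif, while talins and kindlins bind the beta subunit's tail and switch the receptor on. Paxillin, vinculin, zyxin, the alpha-actinins, the tensins and the complex of ILK, PINCH and parvin then assemble on that tail as a focal adhesion and couple it to actin.

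The shPAX2 libraries were all deeper than the shEV libraries, at 19422615 to 29405787 recovered reads against 10730909 to 18221859, so the part of depth in a difference cannot be told apart fully from that of the group. *PAX2* was measured at 4.03, 3.66 and 2.74 TPM (TPM is reads scaled by gene length and library total) in the shEV libraries and at 0.916, 0.723 and 1.17 TPM in the shPAX2 libraries. The groups did not overlap, and the log2 fold change of *PAX2* was -1.47 (SE 0.18, adjusted p = 0.000294 in limma). An exact permutation test of the 6 libraries, two-sided, gave p = 0.1, the smallest that 3 against 3 allow. The labels call the cells epithelial, but of 13 rows of epithelial markers only *KRT18* averaged 1 TPM or more. *CDH1*, *EPCAM* and *KRT8* never passed 6 reads in a library. Of 13 rows of leukocyte markers, *CORO1A*, *CD68* and *FCER1G* averaged 1 TPM or more. *CORO1A* averaged 11.5 TPM in shEV and 10.0 TPM in shPAX2, and *FCER1G* 1.09 and 1.30 TPM. *CD68* rose from 1.19 to 2.02 TPM (adjusted p = 0.0359 in limma). *PTPRC*, the common leukocyte antigen, reached at most 0.0138 TPM in a library. In bulk RNA, fewer cells that express a gene and less of its RNA per cell cannot be told apart.

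Of the 38 members, 24 reached 0.5 TPM in at least 3 libraries and were tested, as were 13163 genes in all. At an adjusted p under 0.05, 6 members rose and 11 fell, against 12.2% and 30.5% of all tested genes in those directions. The 11 that fell were 45.8% of the tested members and the 6 that rose were 25.0%. *ITGA2*, *ITGA1*, *FERMT2* and *ITGB8* fell by at least 2-fold on the log2(TPM + 0.5) scale, which is 16.7% of the tested members against 3.11% of all tested genes. No member rose that far, while 1.43% of all tested genes did. The groups of libraries did not overlap for 18 of the 24 members, or 75.0%, against 54.9% of all tested genes. *ITGA2* and *ITGA1* are in both counts, but passed the filter only through shEV, which fixed their lack of overlap in advance. The tested members had a median level of 33.0 TPM, above the 20.4 TPM of all tested genes. The median log2 fold change was -0.10 over the members and -0.10 over all tested genes. Scaling by median-of-ratios moved that median of all genes to 0.01 and the split of the members to 9 higher and 9 lower, while quantile normalization gave 7 and 7. Small changes are therefore to be read against a median of all genes that lay at -0.10. No called member changed sign under either scaling. The remaining 14 members stayed under the filter. None of them averaged above 0.380 TPM in either group, and 7 of them had at most 3 recovered reads in every library.

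**Figure D1:**
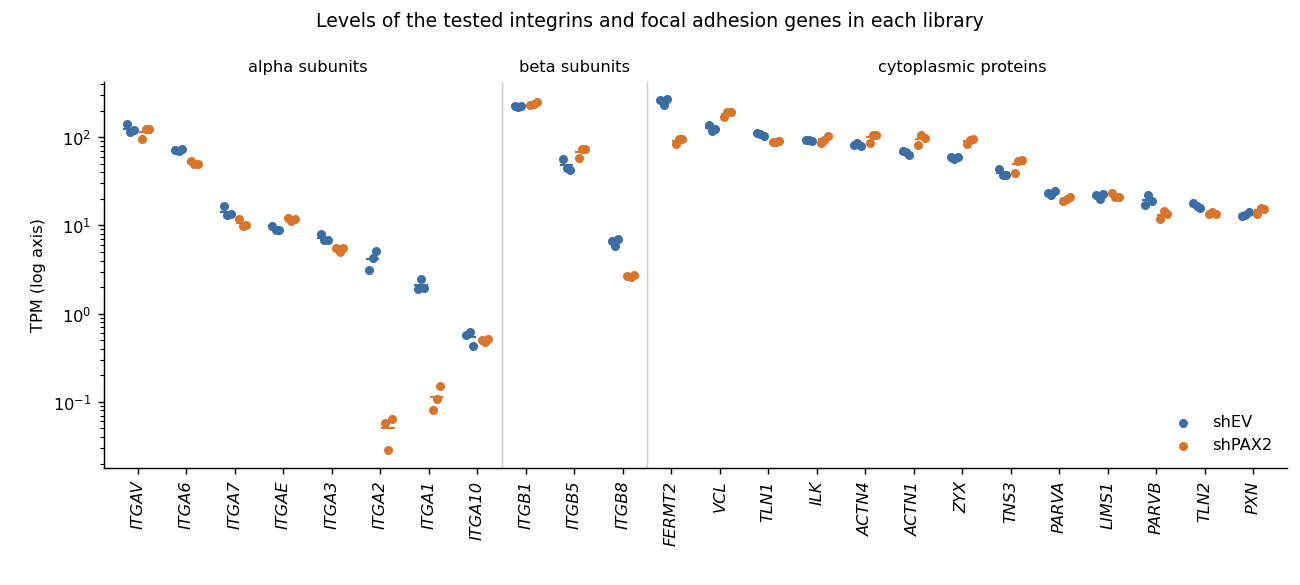
Level of each of the 24 tested members in each library, in TPM on a log axis, ordered within each role by the shEV mean; points are libraries and short lines are group means. The shPAX2 libraries of ITGA2 and ITGA1 lie more than 10-fold below those of shEV, FERMT2 and ITGB8 lie apart without overlap, and the other members stay within a 2-fold range of their shEV mean.

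The largest falls among the tested members were those of *ITGA2* and *ITGA1*. These encode collagen-binding alpha subunits, as do *ITGA10* and *ITGA11*, and all 4 pair with *ITGB1*. *ITGA2* stood at 3.09, 4.32 and 5.08 TPM in shEV and at 0.0578, 0.0281 and 0.0648 TPM in shPAX2. These values rest on 131, 302 and 363 reads against 7, 3 and 5, so every shPAX2 library was near the floor of detection. *ITGA1* stood at 1.90, 2.45 and 1.96 TPM in shEV and at 0.0817, 0.108 and 0.150 TPM in shPAX2. Both genes passed the filter of 0.5 TPM only through their 3 shEV libraries. That all shEV libraries lay above all shPAX2 libraries followed from this and is no support of its own. The log2 fold change was -3.06 (SE 0.19, adjusted p = 7.13e-06) for *ITGA2* and -2.08 (SE 0.17, adjusted p = 2.77e-05) for *ITGA1*, and both understate the change because of the added 0.5. From the pooled reads, *ITGA2* was 88.0-fold lower in shPAX2, with an exact 95% interval of 53.0 to 158 that covers counting error only. *ITGA1* was 19.7-fold lower, with an interval of 12.5 to 32.9. *ITGA10* did not pass the test at 0.539 ± 0.0977 against 0.498 ± 0.0219 TPM (SD, n = 3 each), with a difference of -0.05 that turned to 0.00 and 0.14 under the other scalings. *ITGA11* had at most 6 reads in any library. The 4 rows summed to 6.85 ± 1.02 TPM for shEV and to 0.693 ± 0.0589 TPM for shPAX2, and *ITGA10* held most of what was left.

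*ITGA1* (GRCh37, chr5:52083750-52255039) and *ITGA2* (chr5:52285170-52390609) are neighbours on the plus strand, with starts 201.4 kb apart. *PELO*, a ribosome rescue factor chosen here after its values were seen, overlaps *ITGA1* on the same strand and has the same annotated start. The 250 bases before the start in the RefSeq promoter table (built on GRCh38.p14, placed here on GRCh37 by a unique exact match, with all 5 genes searched found by symbol) are shown because this window is the same for a gene that fell and a gene that did not. The capitals mark GC boxes (GGGCGG on either strand), which occur in 42.6% of the 35116 promoters of the RefSeq table, and the ITGA1 window holds 0 of them and the ITGA2 window 4.
ITGA1 and PELO (chr5:52083500-52083749, plus strand): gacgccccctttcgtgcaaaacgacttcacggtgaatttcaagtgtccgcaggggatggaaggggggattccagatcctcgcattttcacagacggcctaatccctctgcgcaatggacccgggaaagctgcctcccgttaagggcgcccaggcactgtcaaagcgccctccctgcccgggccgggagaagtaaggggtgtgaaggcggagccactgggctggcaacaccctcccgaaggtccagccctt
ITGA2 (chr5:52284932-52285181, plus strand): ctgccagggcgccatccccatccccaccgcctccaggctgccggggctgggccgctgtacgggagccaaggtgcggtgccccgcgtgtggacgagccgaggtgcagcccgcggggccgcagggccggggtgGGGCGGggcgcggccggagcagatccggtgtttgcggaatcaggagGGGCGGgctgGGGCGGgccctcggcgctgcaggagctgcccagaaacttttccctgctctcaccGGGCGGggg

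*PELO* averaged 36.9 TPM in shEV and 39.8 TPM in shPAX2, and its log2 fold change was 0.11 (adjusted p = 0.269). With median-of-ratios scaling the value was 0.22 (adjusted p = 0.0406), so under neither scaling did it fall with *ITGA1*. *MOCS2* and *NDUFS4*, the next tested genes beyond *ITGA2*, had log2 fold changes of 0.04 and 0.08 with adjusted p of 0.727 and 0.398. *PARP8*, whose start lies 2122 kb before that of *ITGA1*, fell by 1.01 on the log2 scale (adjusted p = 2.9e-05), and *ARL15*, 1321.2 kb beyond the *ITGA2* start, fell by 0.86 (adjusted p = 0.00122). *MRPS30*, the next tested gene beyond *PARP8*, had a log2 fold change of -0.10 (adjusted p = 0.178). Both integrin genes fell, while the 3 tested genes closest to them did not. The distant *PARP8* fell by at least 2-fold, as did 3.11% of all tested genes. The smaller fall of the distant *ARL15* stands beside 30.5% of all tested genes that fell. *ITGA1* has 7 annotated starts over 143.23 kb, and TPM per gene does not tell which of them was in use. A search on both strands for GTCACG, the core bound by PAX2, PAX5 and PAX8, for TGANTCA, the AP-1 element, and for GGAATG, the TEAD element, found no match in the 250 bases of *ITGA1*, *ITGA2*, *FERMT2* or *ITGB8*. These letters occur in 7.93%, 6.57% and 11.9% of all promoters in the table. The windows end at the RefSeq starts, which are not always those of GENCODE. By GENCODE the window of *FERMT2* (chr14:53417769-53418018) lies inside the gene. That of *ITGB8* (chr7:20370273-20370522) runs past the start at 20370325. *FERMT2* has 15 annotated starts over 91.13 kb, and the other starts were not searched.

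**Figure D2:**
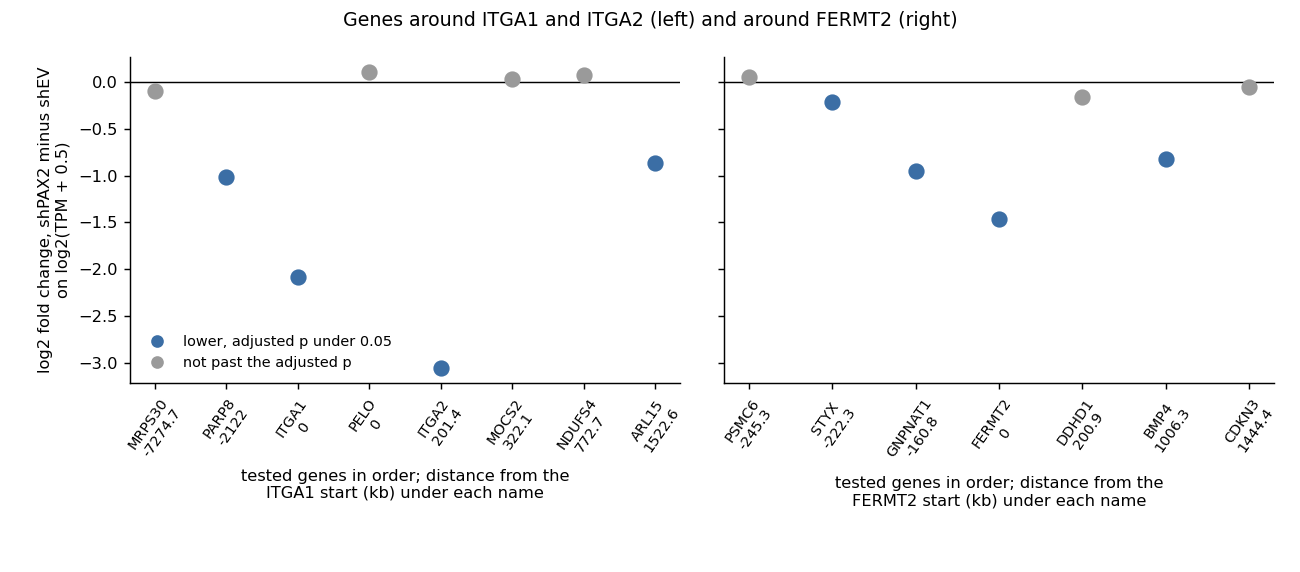
Log2 fold change (shPAX2 minus shEV, on log2(TPM + 0.5)) of the tested genes in chromosome order around ITGA1 and ITGA2 (left) and around FERMT2 (right), with the distance of each gene's start in kb under its name; blue points passed an adjusted p under 0.05. PELO, MOCS2 and NDUFS4 lie near 0 beside ITGA1 and ITGA2 at -2.08 and -3.06, while GNPNAT1 lies at -0.95 beside FERMT2 at -1.47.

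The laminin-binding subunits fell together by smaller amounts. *ITGA6*, the partner of *ITGB1* or *ITGB4* in laminin receptors, stood at 71.7, 69.3 and 74.0 TPM in shEV and at 53.8, 49.2 and 49.7 TPM in shPAX2. Its groups were well apart, with a log2 fold change of -0.49 (SE 0.06, adjusted p = 0.000319). *ITGA7*, the main laminin receptor subunit of muscle, stood at 16.5, 13.2 and 13.4 TPM in shEV and at 11.7, 9.92 and 10.1 TPM in shPAX2. It fell by 0.42 (adjusted p = 0.0113), and replicate 1 was the highest library of both groups. *ITGA3* went from 7.24 ± 0.691 to 5.34 ± 0.295 TPM (SD, n = 3 each) and fell by 0.40 (adjusted p = 0.0105). Under quantile normalization the calls of *ITGA7* and *ITGA3* were lost, with adjusted p of 0.117 and 0.205. Across the 3 genes the summed level went from 93.3 ± 3.57 to 66.8 ± 3.72 TPM. *ITGB4*, which forms the hemidesmosome receptor with *ITGA6*, stood at 0.245, 0.279 and 0.401 TPM in shEV and at 0.183, 0.378 and 0.337 TPM in shPAX2, from 8 to 31 reads, so this partner was near the floor of detection in both groups.

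*ITGAV*, the alpha subunit shared by several RGD-binding receptors, was the most abundant alpha subunit. It stood at 141, 114 and 121.5 TPM in shEV and at 94.9, 123 and 124 TPM in shPAX2. The groups overlapped, since only shPAX2 replicate 1 lay below the shEV range, and the log2 fold change was -0.14 with a 95% interval of -0.42 to 0.14 (adjusted p = 0.382). The other RGD-binding rows, *ITGA5* of the classical fibronectin receptor and *ITGA2B* of platelets, had at most 6 and 16 reads in any library.

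Of the 8 tested alpha subunits, *ITGAE* was the only one that rose. It stood at 9.94, 8.94 and 8.95 TPM in shEV and at 12.2, 11.1 and 11.7 TPM in shPAX2, with no overlap. The log2 fold change was 0.32 (SE 0.08, adjusted p = 0.0110). *ITGAE* is known from T cells in epithelia, where its protein pairs with that of *ITGB7* and binds E-cadherin, encoded by *CDH1*. Here *ITGB7* averaged 0.282 and 0.101 TPM in shEV and shPAX2 and *CDH1* never passed 4 reads. *GSG2* (*HASPIN*) lies within *ITGAE* on the opposite strand, and whether the counting used strand is not given in the sources used here, so their reads may not have been separated. The other leukocyte rows, *ITGAL*, *ITGAM*, *ITGAD*, *ITGA4* and the beta subunit *ITGB2*, reached at most 0.0729 TPM in any library.

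Among the beta subunits, *ITGB1*, a partner of the collagen-binding and the laminin-binding alpha subunits, was the most abundant. It stood at 227, 219 and 229 TPM in shEV and at 233, 239 and 248 TPM in shPAX2. The groups did not overlap but lay close together, with a log2 fold change of 0.09 and a 95% interval of -0.03 to 0.22 (adjusted p = 0.191). Median-of-ratios scaling put it at 0.21 (adjusted p = 0.0123). *ITGB5*, a partner of *ITGAV* in vitronectin binding, stood at 56.2, 44.9 and 42.6 TPM in shEV and at 58.7, 73.3 and 73.3 TPM in shPAX2. It rose by 0.51 (SE 0.13, adjusted p = 0.0152), with the highest shEV library just under the lowest shPAX2 library. That call was lost without shEV replicate 2, shPAX2 replicate 2 or shPAX2 replicate 3, and without shEV replicate 3 when the filter asked for 2 libraries.

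*ITGB8*, which pairs with *ITGAV* and is known for binding latent TGF-beta, went the opposite way. It stood at 6.62, 5.83 and 6.94 TPM in shEV and at 2.67, 2.60 and 2.75 TPM in shPAX2. The shPAX2 libraries lay within a narrow range well under the shEV libraries, and the log2 fold change was -1.13 (SE 0.11, adjusted p = 6.83e-05). *TGFB2* and *TGFB3*, chosen after their values were seen, fell by 0.56 and 0.51 (adjusted p = 0.00142 and 0.000589), while *ITGAV* did not pass the test. *TGFB1* averaged 0.118 TPM in shEV and 0.0466 TPM in shPAX2, too low to be tested. Which of these forms the receptor binds was not tested here. *ITGB8* lies at chr7:20370325-20455377 on GRCh37. Of its 3 nearest tested genes on each side, *SNX13* alone passed the test, with a log2 fold change of -0.25 (adjusted p = 0.0204). Among the others, *MIR3146* and *RPL23P8* had at most 3 and 6 reads in any library, too few to compare. *ITGB3* was counted with 3, 2 and 16 reads in the shEV libraries and with 2 in each shPAX2 library, which is too few to compare.

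The makeup of the 2 subunit pools moved less than the single genes, because the genes with the largest falls were minor. *ITGAV* was 53.2 ± 2.13% of the alpha subunit TPM in shEV and 58.6 ± 4.94% in shPAX2 (SD, n = 3 each). *ITGA6* went from 30.6 ± 1.94% to 26.5 ± 3.11%, with overlapping libraries. *ITGA2* and *ITGA1* made up 1.79 ± 0.506% and 0.904 ± 0.190% in shEV and 0.0262 ± 0.0105% and 0.0580 ± 0.0146% in shPAX2. *ITGB1* was 80.4 ± 1.93% of the beta subunit TPM in shEV and 77.1 ± 1.75% in shPAX2, *ITGB5* 17.1 ± 2.09% and 21.9 ± 1.76%, and *ITGB8* 2.31 ± 0.167% and 0.859 ± 0.0401%. In sum, the alpha subunits held 235 ± 16.8 TPM in shEV and 193.5 ± 12.4 TPM in shPAX2, and the beta subunits 280 ± 9.96 and 312 ± 15.2 TPM.

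**Figure D3:**
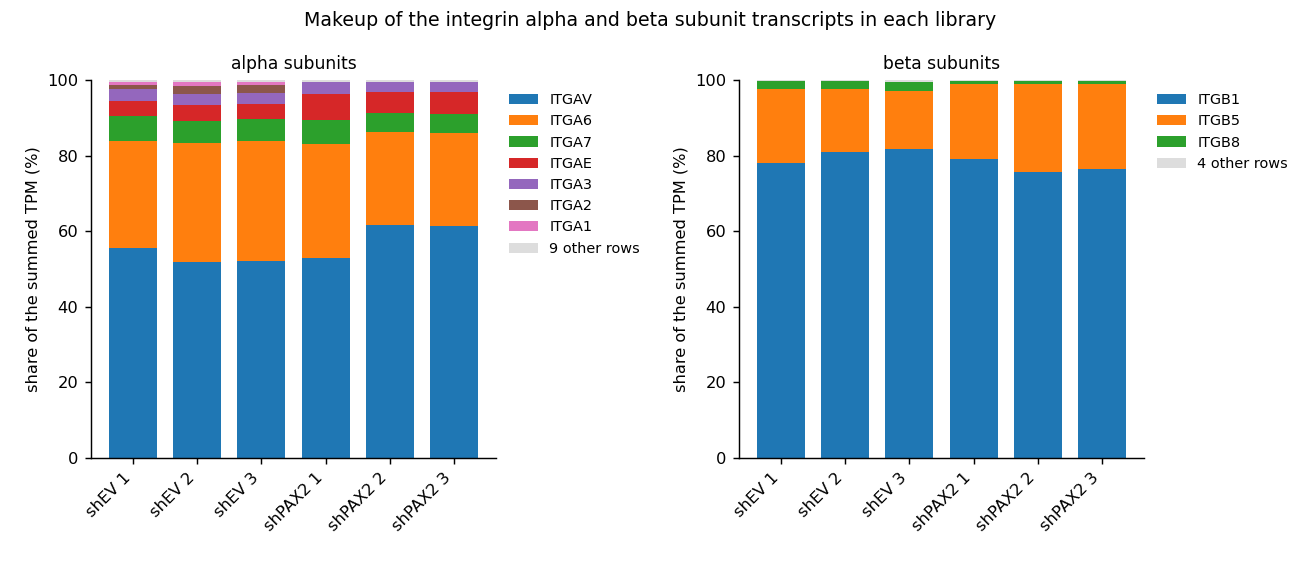
Share of the summed TPM (%) of the 16 alpha subunit rows (left) and the 7 beta subunit rows (right) held by each gene, 1 bar per library. ITGA2 and ITGA1 together are a thin band in the 3 shEV bars and cannot be seen in the shPAX2 bars, and ITGB8 shrinks from about 2.31% to 0.859% on average.

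Of the proteins that switch integrins on, *FERMT2* (kindlin-2) changed the most. It stood at 262, 230 and 268 TPM in shEV, where it was the most abundant cytoplasmic member, and at 83.4, 95.4 and 95.1 TPM in shPAX2. The highest shPAX2 library lay far below the lowest shEV library, and the log2 fold change was -1.47 (SE 0.08, adjusted p = 3.58e-06), with shPAX2 at 36.0% of shEV. These levels rest on 20163 and 12013 reads in all. *TLN1* (talin-1), which binds the same beta subunit tails, stood at 112, 108 and 104 TPM in shEV and at 88.0, 89.3 and 90.4 TPM in shPAX2. It fell by 0.28 (SE 0.05, adjusted p = 0.00368) with no overlap. The ratio of *FERMT2* to *TLN1* TPM was 2.35, 2.12 and 2.57 in shEV and 0.948, 1.07 and 1.05 in shPAX2. *TLN2* (talin-2) went from 16.8 ± 1.09 to 13.7 ± 0.368 TPM and fell by 0.28 (adjusted p = 0.0122), a call lost under both other scalings (adjusted p = 0.0753 with median-of-ratios and 0.196 with quantile normalization). The 3 activators together went from 378 ± 20.7 to 194 ± 8.12 TPM.

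*FERMT2* lies at chr14:53323986-53419153 (GRCh37, minus strand). *GNPNAT1*, an enzyme of UDP-GlcNAc synthesis whose start is 160.8 kb away, fell by 0.95 (adjusted p = 3.4e-05). *STYX*, *PSMC6* and *DDHD1*, the other tested genes within 250 kb, had log2 fold changes of -0.21, 0.06 and -0.16, of which that of *STYX* passed the test (adjusted p = 0.0462). *BMP4*, 1006.3 kb away, fell by 0.82 (adjusted p = 0.00467). These neighbours, like those of *ITGA1*, were chosen after values were seen.

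In the complex of ILK, PINCH and parvin, both parvins passed the test and *ILK* and *LIMS1* did not. *ILK*, the scaffold of the complex, stood at 93.3, 92.6 and 90.2 TPM in shEV and at 85.9, 93.1 and 104 TPM in shPAX2. Its groups overlapped, with a log2 fold change of 0.03 and a 95% interval of -0.14 to 0.20 (adjusted p = 0.748). *LIMS1* (PINCH-1) stood at 21.4 ± 1.47 and 21.9 ± 1.38 TPM, and has near-identical copies in the genome that could share its reads. *PARVB* (beta-parvin) went from 19.3 ± 2.43 to 13.3 ± 1.34 TPM and fell by 0.52 (adjusted p = 0.00439), and it overlaps *SAMM50* on the same strand. *PARVA* (alpha-parvin) went from 23.3 ± 1.02 to 20.0 ± 0.914 TPM and fell by 0.22 (adjusted p = 0.0260), a call lost under both other scalings (adjusted p = 0.188 and 0.192) and without shEV replicate 1 or 3 or shPAX2 replicate 1 or 2. *LIMS2* had at most 1 read in any library.

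Paxillin, vinculin, zyxin, the alpha-actinins and the tensins had 6 tested members, of which 4 rose and the other two did not pass the test, whereas both parvins, which also bind actin, fell. *VCL* (vinculin) stood at 137, 118 and 123 TPM in shEV and at 170, 192 and 194 TPM in shPAX2. The groups were well apart, with a log2 fold change of 0.55 (SE 0.08, adjusted p = 0.000676). *ZYX* (zyxin), a LIM protein that is recruited to adhesions under tension, went from 58.7 ± 1.85 to 91.0 ± 7.05 TPM. Its log2 fold change of 0.63 (adjusted p = 0.00017) was the highest of the members. *ACTN1*, an actin crosslinker, went from 66.5 ± 3.39 to 95.3 ± 12.1 TPM and rose by 0.51 (adjusted p = 0.00235). *ACTN4* went from 83.0 ± 2.88 to 99.8 ± 11.8 TPM and rose by 0.26 (adjusted p = 0.0385), a call that was lost when any single library other than shPAX2 replicate 1 was left out. *PXN* (paxillin) at 13.3 ± 0.725 and 14.9 ± 1.06 TPM, and *TNS3* (tensin-3) at 39.4 ± 3.45 and 49.3 ± 8.67 TPM, did not pass the test, with adjusted p of 0.151 and 0.105. *TNS3* had a log2 fold change of 0.31 with all libraries and 0.46 (adjusted p = 0.00238) without shPAX2 replicate 1. *TNS1* had at most 4 reads.

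**Figure D4:**
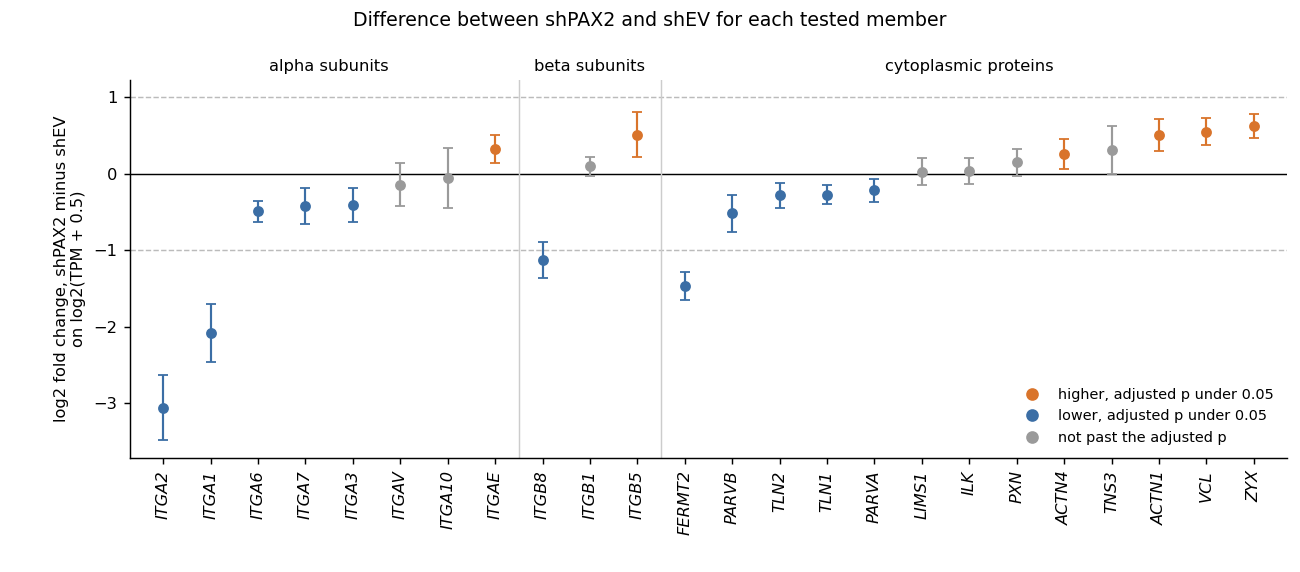
Log2 fold change (shPAX2 minus shEV, on log2(TPM + 0.5)) with its 95% interval for each of the 24 tested members, by role; colours give the direction of those past an adjusted p under 0.05, and dashed lines mark 2-fold. ITGA2, ITGA1, FERMT2 and ITGB8 lie below the lower line and no member lies above the upper one; ITGA10 alone of the alpha and beta subunits changes sign under another scaling.

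In both groups a single library was often the lowest for these genes. Over all tested genes the shPAX2 libraries correlated with each other at 0.989 to 0.9928 and the shEV libraries at 0.9849 to 0.9881. Replicate 1 of shPAX2 was the lowest of its group for 16 of the 24 tested members and replicate 3 for 0. Replicate 2 of shEV was the lowest of its group for 13. The same was not counted over all tested genes. Of the 6 members that rose, 5 had their lowest shPAX2 level in replicate 1, or 83.3%, against 59.6% of the 1612 genes that rose in the whole table. Without that library 7 members rose and 10 fell.

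Other genes of adhesion were taken from 5 lists, with 164 genes tested. The lists were chosen with earlier results of these data known, so the shares below describe them and test nothing. Of these 32 rose and 54 fell, or 19.5% and 32.9% against 12.2% and 30.5% of all tested genes, so that the share that fell was near that of the whole table. The median log2 fold change was -0.07, and under median-of-ratios scaling 58 rose and 39 fell. Among the matrix proteins and other integrin ligands, 1 of 15 rose and 9 fell, against 12.2% and 30.5% of all tested genes, with a median of -0.51 against -0.10 for all tested genes. *COL3A1*, the gene of collagen III, stood at 25.8, 38.4 and 41.2 TPM in shEV and at 248, 241 and 236 TPM in shPAX2, a log2 fold change of 2.79 (adjusted p = 0.000122). *COL1A2* of collagen I, chosen after its values were seen, averaged 836 TPM in shEV and 390 TPM in shPAX2, a log2 fold change of -1.11 (adjusted p = 1.75e-05). *COL1A1*, also of collagen I, averaged only 1.02 and 0.888 TPM and did not pass the test (log2 fold change -0.11, adjusted p = 0.717). Collagens I and III are ligands of the receptors formed by *ITGA1* and *ITGA2*, but these are RNA levels and collagen protein was not measured. *CTGF* (*CCN2*), a matricellular ligand, stood at 25.4, 15.7 and 12.9 TPM in shEV and at 0.112, 0.538 and 0.481 TPM in shPAX2, a log2 fold change of -4.38 (adjusted p = 9.48e-05). *SPP1* (osteopontin) was counted with 47, 59 and 67 reads in the shEV libraries and 0, 3 and 3 in the shPAX2 libraries, which lie at the floor of 3 reads, and the pooled ratio was 47.8 (exact 95% interval 21.5 to 132). Laminin was represented among the tested ligands by *LAMA5*, which averaged 6.73 TPM in shEV and 3.36 TPM in shPAX2 (adjusted p = 0.00187).

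Of 42 tested kinases and adaptors of adhesion signalling, 2 (4.76%) rose and 22 (52.4%) fell, against 12.2% and 30.5% of all tested genes, with a median of -0.20 against -0.10. *NEDD9* (HEF1), a docking protein of focal adhesion kinase and Src, stood at 1.84, 1.88 and 2.51 TPM in shEV and at 38.5, 45.6 and 46.1 TPM in shPAX2. All shPAX2 libraries lay far above shEV, with a log2 fold change of 4.10 (adjusted p = 9.62e-08). *STARD13* rose by 0.37 (adjusted p = 0.0130), a call lost without shPAX2 replicate 2. The Src-family kinases *LYN* and *FYN* fell by 2.38 and 0.68 (adjusted p = 5.55e-06 and 0.000894), *LYN* from 17.2 ± 0.453 to 2.95 ± 0.674 TPM.

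Of 30 other scaffold genes, 6 (20.0%) rose and 10 (33.3%) fell, the latter a share near that of all tested genes. *CSRP2* and *KANK1*, the latter a talin-binding protein at the rim of adhesions, fell by 0.61 and 0.56 (adjusted p = 0.000411 and 0.000171). Of 39 regulators of integrin activity and traffic, 6 (15.4%) rose and 10 (25.6%) fell, both shares near those of all tested genes (12.2% and 30.5%), and their median was -0.05. *MYO10*, the motor that carries integrins to filopodial tips, stood at 0.0326, 0.00990 and 0.0678 TPM in shEV and at 8.08, 6.35 and 6.31 TPM in shPAX2. With 10 reads in shEV against 3096 in shPAX2, the pooled ratio was 187 (exact 95% interval 101 to 390). *RAPGEF3* (EPAC1) rose by 1.04 (adjusted p = 0.0293) with overlapping groups, and its call was lost in 9 of 20 alternatives, including without shEV replicate 2 or 3 and shPAX2 replicate 2 or 3. *DAB2*, an endocytic adaptor of integrins, fell by 1.07 (adjusted p = 7.08e-06) and the tetraspanin *CD9* by 0.81 (adjusted p = 2.44e-05).

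The list of actin and contractility genes ran the other way, with 17 of 38 (44.7%) higher and 3 (7.89%) lower, against 12.2% and 30.5% of all tested genes. Its median was 0.16 against -0.10. These genes had a median level of 136 TPM, above the 20.4 TPM of all tested genes. *ACTA2*, smooth muscle actin, stood at 77.3, 58.9 and 59.1 TPM in shEV and at 225, 307 and 355 TPM in shPAX2. It rose by 2.16 (adjusted p = 0.000824). *TPM1*, a tropomyosin, stood at 30.9, 25.7 and 26.2 TPM in shEV and at 64.5, 111.5 and 112 TPM in shPAX2, and rose by 1.74 (adjusted p = 0.00478). In both genes replicate 1 was the lowest shPAX2 library, as it was for 13 of the 17 genes that rose (76.5%), against 59.6% of all genes that rose. *WASL*, an activator of actin branching, and *MYH14*, a non-muscle myosin heavy chain, fell by 0.59 and 0.38 (adjusted p = 0.000442 and 0.00534). The 8 rows of smooth muscle markers, which include *ACTA2*, summed to 93.7 to 116 TPM in shEV and 259 to 393 TPM in shPAX2, and most of that rise was *ACTA2* itself (65.1 and 296 TPM on average). Of the other tested markers, *TAGLN* rose by 1.05 (adjusted p = 0.000746) and *LMOD1* fell by 0.49 (adjusted p = 0.0494). *SMTN* did not pass the test at 31.2 and 27.5 TPM on average (adjusted p = 0.0540). *MYH11* and *DES*, also on that list, never passed 2 and 5 reads. The part of smooth muscle cells in the rise of the actin genes was not tested.

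**Figure D5:**
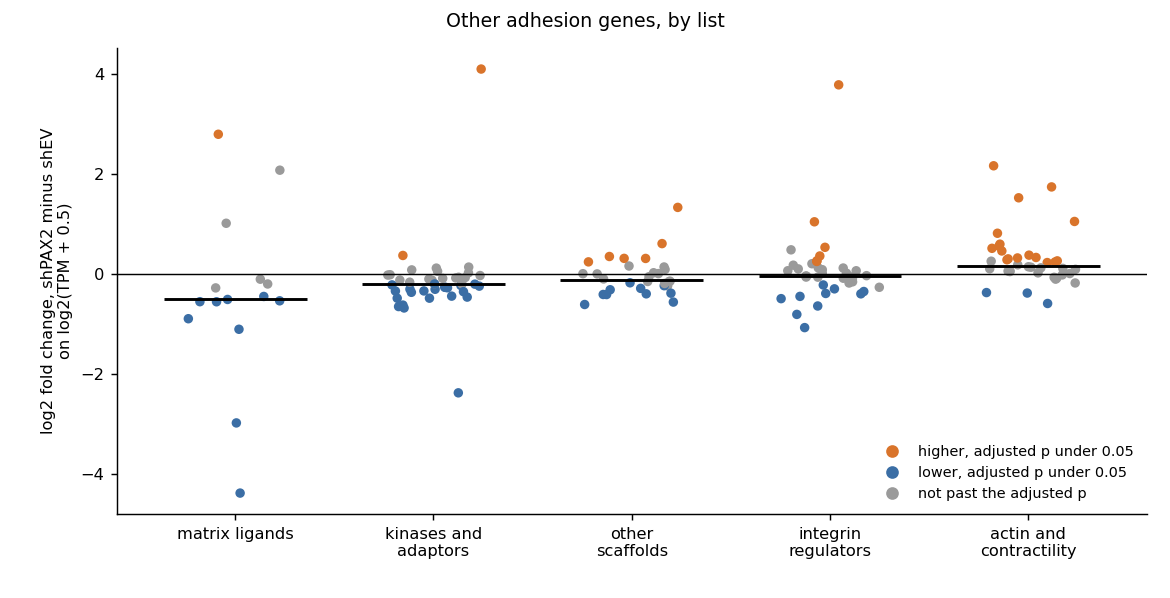
Log2 fold change (shPAX2 minus shEV, on log2(TPM + 0.5)) of the tested genes of each list of other adhesion genes; points are genes, coloured by direction where the adjusted p was under 0.05, and black lines are medians. The ligands have the lowest median (-0.51) and the actin and contractility genes the highest (0.16).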

How the data were processed

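RNA-seq of 6 AN3CA libraries was analysed, 3 shEV and 3 shPAX2, grouped by their titles. The authors deposited TPM values per gene symbol. The submitters' processing notes name STAR, featureCounts of the Subread package and hg19 (GRCh37), with no versions, and whether the counting used strand is not given in the sources used here. The kit was a stranded total RNA kit.

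Because the deposited TPM kept the ratios of whole reads, reads per gene were recovered for 100.0% of 17471 genes (tolerance 1e-09), up to a factor common to the libraries of a gene. A gene seen in a single library was set to the smallest whole count there, so its true count may be higher. They gave the depth per library, and intervals from them cover counting error only.

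Genes that reached TPM 0.5 in 3 or more libraries (13163) were tested on log2(TPM + 0.5) with limma 3.58.1 in R 4.3.3 (eBayes with trend and robust, two-sided, no covariate), with Benjamini-Hochberg adjustment over all genes tested. A member was called at an adjusted p under 0.05, and a second threshold added an absolute log2 fold change of 1. The fit was tested on simulated data.

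The members and gene lists were chosen with earlier results of these data known. Values per library are given for members past both thresholds and for the 4 alpha, 4 beta and 4 cytoplasmic members with the highest mean TPM, group means for the other called members, and, in each list of other genes, the 2 highest and 2 lowest called ones are named, and some that this rule names are not reported here. Positions are from GENCODE 44 on GRCh37, which covered 93.6% of genes. Promoter sequences are from RefSeq (GRCh38.p14) and were placed on GRCh37 by a unique exact match. Alternatives were other pseudocounts, filters, scalings and thresholds, limma's voom on the recovered reads, a replicate block and leaving out each library.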

Additional observations from a re-analysis of the deposited data

How the results depend on the processing

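Up to 21 alternatives were run. Of the 24 tested members, 11 kept their direction and their side of the threshold in every alternative that could be fitted for them, 7 lost their call in at least 1, and *ITGB1*, *PXN* and *TNS3* gained one. *FERMT2*, *ITGB8*, *ITGA1* and *ITGA2* kept their calls at the adjusted p wherever they were tested, and *PAX2* ranged from -1.87 to -1.20. An adjusted p under 0.01 left 10 members, 3 higher and 7 lower, and quantile normalization left 7 lower and 3 past both thresholds, since *ITGB8* moved to -0.88. A filter at TPM 5 left 2 members past both thresholds, because *ITGA1* and *ITGA2* were no longer tested. Leaving out 1 library gave 2 to 4 members past both thresholds; the low value came without any of shEV replicates 1 to 3, where *ITGA1* and *ITGA2* failed the filter of 3 libraries. With the filter in 2 libraries, an alternative chosen after seeing the data, all 4 were called each time. Limma's voom on the recovered reads gave 6 members higher and 11 lower. Median-of-ratios scaling gave 58 other adhesion genes higher against 32.

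*ITGA10* turned to 0.0028 (median-of-ratios) and 0.138 (quantile normalization). Leaving out 1 library gave -0.0407 to 0.0989 for *ILK* and -0.0266 to 0.0682 for *LIMS1*. None of these 3 passed the test.

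The labels share replicate numbers 1 to 3, but the deviations of same-numbered libraries correlated at -0.0523, 0.0815 and 0.0014, so the numbers were not taken as pairs. With the replicate block 5 members were higher, 11 lower and 4 past both thresholds, and *ITGB5* had an adjusted p of 0.0728. A shEV library had as few as 10730909 reads, so rows with a few reads cannot be compared.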
